A study of Petrolisthes cinctipes with 164 samples.

Results

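The probes described here were raised in porcelain crabs 1 and 2 h after a heat stress and differed less from control crabs at 24 and 30 h. They were chosen by their own values. For each probe a pair differential was formed, the log2 value of a heat stressed crab minus that of the control crab hybridised with it, with both arrays of the pair averaged. Its mean over the pairs of 1 and 2 h is called E (early), that over the pairs of 12 and 18 h M (middle) and that over the pairs of 24 and 30 h L (late). A probe was kept where E was the largest of the 3 and at least 0.4, L was under 0.5 times E, and neither M nor L was below -0.25. Of 13818 probes on the array, 83 met these conditions, and the 60 with the largest E minus L are the members. E, M and L, and every differential at 1, 2, 12, 18, 24 and 30 h, are therefore descriptions of the choice and carry no test. The differentials at 0.5, 4 and 6 h were not used in the choice and are the only ones tested.

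Petrolisthes cinctipes is a small filter feeding crab that lives under stones between the tide lines, where low tide on a warm day exposes it to heat. The crabs were collected at Cape Arago, Oregon. Heat stressed crabs were warmed from 11 to 30 °C over 4 h, control crabs were held at 11 °C for the same 4 h, and all then recovered in a common aquarium at 11 °C. Total RNA of the dissected animals was taken at 9 recovery times, from 5 heat stressed and 5 control crabs at 0.5, 2, 12, 18, 24 and 30 h, 4 and 4 at 1 and 6 h, and 3 and 3 at 4 h. The tissue is not given in the sources used here. This makes 82 crabs, 41 pairs and 82 cDNA arrays, since each pair was hybridised on 2 arrays, a and b, with the Cy5 and Cy3 dyes exchanged. The differential thus compares warming with holding at 11 °C.

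In animal cells, heat unfolds proteins, and the heat shock response answers by switching on genes of molecular chaperones, proteins that hold or refold other proteins, and of enzymes that degrade what cannot be refolded. The response is known to be fast and to be shut off once the temperature returns to normal, because chaperones also restrain the transcription factor that induces them. Whether any member probe reports such a gene could not be read from the data, because the deposited table names a probe only by its plate position (Pc, a plate number, a letter, then the row and column of the well) and pairs none with a gene or a sequence. The members are therefore given by probe identifier throughout, with no function attached.

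Some pairs stand apart and bear on the results. In replicate 5 of 0.5 h and replicate 1 of 6 h, the members ran opposite to the other pairs of their time point, and each result at these times is given with and without them. In replicates 1 and 3 of 4 h, arrays a and b of the same crabs opposed each other: over the members, arrays a and b correlated at r = -0.78 in replicate 1 and -0.85 in replicate 3, and over all probes at -0.13 and -0.47, so the direction of these pairs is not settled. In the 39 other pairs r over all probes was also low, with a median of 0.29 and a lowest of -0.23. The members' medians from arrays a and b had opposite signs in 8 of 41 pairs. These were replicates 1 and 3 of 4 h and pairs at 12, 18, 24 and 30 h. Title and description of a sample disagreed in 21 of 164 samples. In 3 pairs (replicate 2 at 4 h, replicates 3 and 4 at 6 h) the descriptions exchanged the treatments of both crabs on both arrays. Titles were used. The members' median differential at 4 h is 0.20 by title and -0.12 by description, and at 6 h it is 0.45 by title and -0.56 by description, so the direction at 4 and 6 h rests on the titles. No sample of 0.5, 1 or 2 h is affected by such a conflict. In replicate 5 of 12, 18, 24 and 30 h only array b has a conflicting description, and in replicate 3 of 4 h only 1 sample does, in its time.

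The members differed widely in the size of the early rise. E ran from 0.44 to 3.87 with a median of 0.97, M from 0.095 to 3.07 with a median of 0.29, and L from -0.073 to 1.79 with a median of 0.20. Over all 13818 probes the medians of E, M and L were -0.0031, 0.010 and 0.015. In the median member M was 31.5% of E and L was 20.4% of E, and the highest L was 46.2% of E. M was above L in 56 of 60 members. L was below 0 in 3 members and at or above 0.4 in 12.

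The members fall into a few large responses and many small ones. In 7 members E was 2 or more, in 21 it lay from 1 to under 2, and in 32 it was under 1. The 7 large ones had a median E of 2.71, M of 1.05 and L of 0.68. For the 21 of middle size the medians were 1.27, 0.37 and 0.27, and for the 32 small ones 0.79, 0.22 and 0.15.

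**Figure D1:**
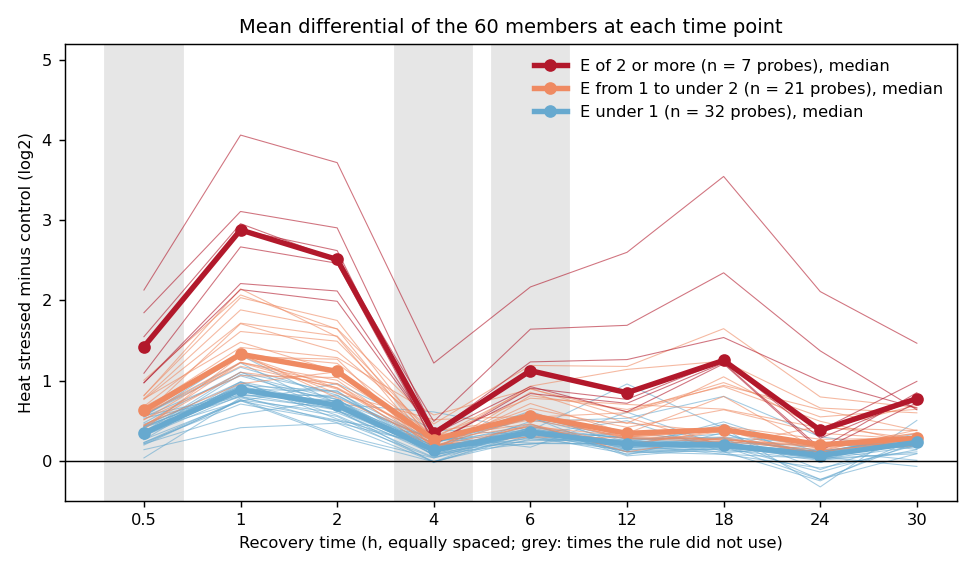
Mean differential (log2, heat stressed minus control) of each of the 60 members against recovery time in hours (equally spaced), with thin lines for members, thick lines for the median of each size class of E, and grey bands at the times not used in the choice. The median over all 60 members stood highest at 1 h (1.10) and 2 h (0.84) and had fallen to 0.12 by 24 h, with 0.27 for the last time point, and the dip at 4 h includes the pairs whose arrays opposed each other.

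Pc02Hd18 had the largest fall from early to late, with an E minus L of 2.31. Its differential was 2.77, 3.95, 3.09 and 2.63 in the 4 pairs of 1 h and 2.63, 2.35, 2.55, 2.87 and 4.12 in the 5 pairs of 2 h, which gives an E of 3.00 ± 0.62 (SD, n = 9 pairs), or 7.98-fold. In every one of these pairs the heat stressed crab was higher, by 2.35 log2 units or more. At 24 h the 5 pairs gave 0.11, -0.24, -0.18, 1.98 and 0.23, and at 30 h 2.14, 0.86, 0.07, 1.28 and 0.59. At 24 h all pairs but replicate 4 lay close to 0, while at 30 h the pairs were spread from 0.07 to 2.14.

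The levels behind these differentials show both crabs of a pair. At 1 h the log2 level of Pc02Hd18 was 13.51, 13.58, 12.74 and 13.47 in heat stressed crabs and 10.74, 9.63, 9.65 and 10.84 in controls, with no overlap. At 24 h it was 10.75, 10.40, 10.15, 13.24 and 10.18 in heat stressed crabs and 10.64, 10.64, 10.33, 11.26 and 9.95 in controls, and the groups overlapped. Pc02Hd18 was also the brightest member, with a mean level over all crabs of 11.23.

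Pc28Ge22 had the highest E of all members, 3.87 ± 0.51 (SD, n = 9 pairs), or 14.6-fold. Its differential was 4.08, 4.00, 3.90 and 4.27 at 1 h and 4.58, 4.05, 3.77, 2.88 and 3.32 at 2 h. It faded more slowly than most, with an M of 3.07 ± 0.91 and an L of 1.79 ± 1.08 (SD, n = 10 pairs each). At 24 h all 5 pairs lay between 1.81 and 2.78, whereas at 30 h replicate 1 was at 4.01 and the others at 1.02, 0.59, 1.46 and 0.24. For Pc28Ge22, 4 of the 5 pairs of 30 h thus lay below every pair of 24 h.

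Pc34Hj10 behaved in a similar way, with an E of 2.71, an M of 2.02 and an L of 1.00. At 30 h its 5 pairs gave 2.03, 0.33, 0.17, 0.61 and 0.03, so here too replicate 1 was the highest. Pc28Gf10 (E 2.05, M 1.40, L 0.83) and Pc31Ha05 (E 1.75, M 1.41, L 0.73) also kept more than 0.5 times E at 12 and 18 h, as did Pc30Hm16 (E 1.88, M 1.19, L 0.63). Pc28Gf10 and Pc31Ha05 were named after their values were seen.

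Other leading members had lost more of the differential by 12 and 18 h. Pc28Gf14 had an E of 2.74 ± 0.60 (SD, n = 9 pairs), 6.66-fold, and an M of 1.01. Pc28Gd20 went from an E of 2.55 to an M of 0.97, and Pc21Ge13 from 2.16 to 0.91. Of the remaining members among the 10 with the largest E minus L, Pc23Pk16 had an E of 1.83 and an M of 0.57, Pc02Hh18 1.81 and 0.76, and Pc28Ga02 1.52 and 0.41. M was under 0.5 times E in all 6 of these.

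**Figure D2:**
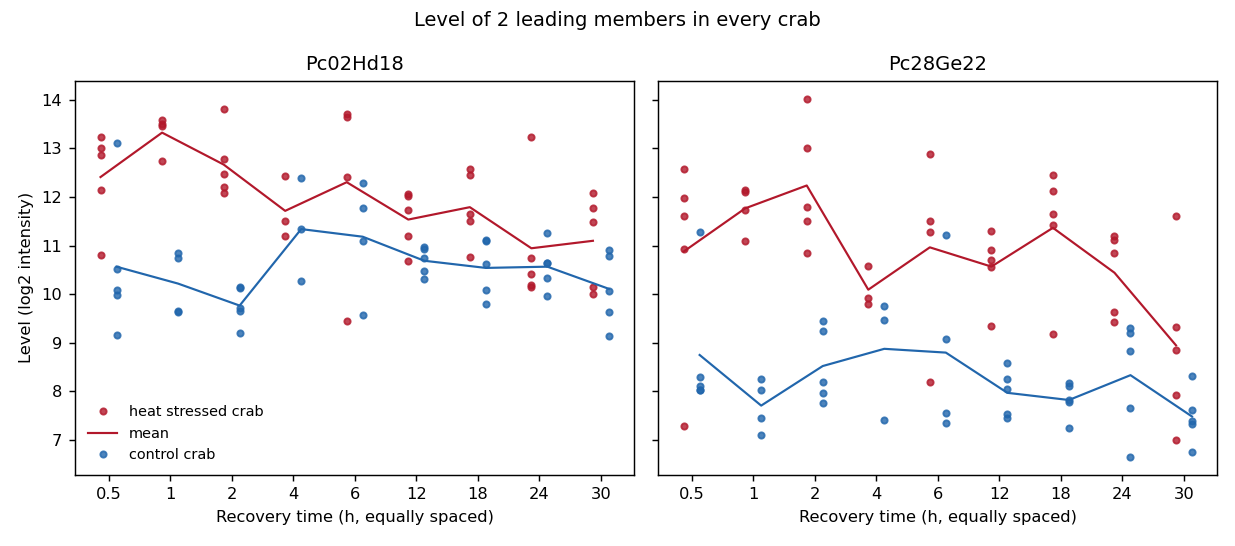
Level (log2 intensity) of Pc02Hd18 and Pc28Ge22 in every crab against recovery time in hours (equally spaced), with points for single heat stressed (red) and control (blue) crabs and lines through the group means. For Pc02Hd18 the groups did not overlap at 1 h, whereas at 0.5 h 1 control crab stood at 13.11 and 1 heat stressed crab at 10.81.

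The share of the early differential still present at 12 and 18 h varied among the members. In 13 of 60, M was at least 0.5 times E, with a range from 50.4% to 84.9%. Pc03Nc05 had the highest share at 84.9%, with an E of 0.80, an M of 0.68 and an L of 0.088, followed by Pc31Ha05 at 80.6% and Pc28Ge22 at 79.4%. In the other 47 members M was 13.9% to 42.1% of E. The lowest M values were those of Pc21Gl08 at 0.095 and Pc27Gg14 at 0.11, and the highest those of Pc28Ge22 and Pc34Hj10. No member lay between 42.1% and 50.4%, and none between 50.4% and 59.0%. The line at 0.5 times E serves the description, and whether the members form separate groups was not tested.

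Within the 3 time windows the direction was uneven. In 55 of 60 members the mean differential was higher at 1 h than at 2 h. It was higher at 18 h than at 12 h in 40 members and higher at 30 h than at 24 h in 46, so the decline was not steady from one time point to the next. Of the members, 58 were above 0 in all 9 pairs of 1 and 2 h, against 1.27% of all probes, a share that the choice itself produced. Levels of heat stressed and control crabs did not overlap for 43 members at 1 h (0.666% of all probes) and for 8 at 2 h (0.138%).

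The differentials at 0.5 h, which the choice did not use, were above 0 in the mean for 60 of 60 members, against 54.8% of all probes. The median over the members was 0.49, with a range from 0.035 to 2.13, against 0.0099 over all probes. Pair by pair the members' median was 0.45, 0.60, 1.04 and 0.96 in replicates 1 to 4 and -0.52 in replicate 5, where 57 of 60 members were below 0 against 44.5% of all probes. Because of that pair only 2 members were above 0 in all 5 pairs (4.13% of all probes), while 55 were above 0 in all 4 others (8.26%). Without replicate 5 the median of the members was 0.74.

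Pc02Hd18 shows the reversal in its levels at 0.5 h. Heat stressed crabs measured 12.14, 13.23, 12.86, 13.01 and 10.81 and their controls 10.07, 9.98, 9.15, 10.51 and 13.11, so the last pair had a low heat stressed crab and a high control. Differentials were 2.07, 3.25, 3.72, 2.50 and -2.30. In Pc28Ge22 the same pair read 7.28 for the heat stressed and 11.29 for the control crab, while the other heat stressed crabs read 11.60, 10.93, 12.59 and 11.98 and the other controls 8.02, 8.10, 8.29 and 8.02. On both probes, each crab of replicate 5 lay closer to the other crabs of the opposite treatment than to those of its own. Both arrays of that pair gave a median below 0 over the members, -0.45 on array a and -0.49 on array b. Whether the treatments of this pair were exchanged was not tested. With all crabs in, no probe had its lowest heat stressed crab of 0.5 h above the highest control (0%).

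**Figure D3:**
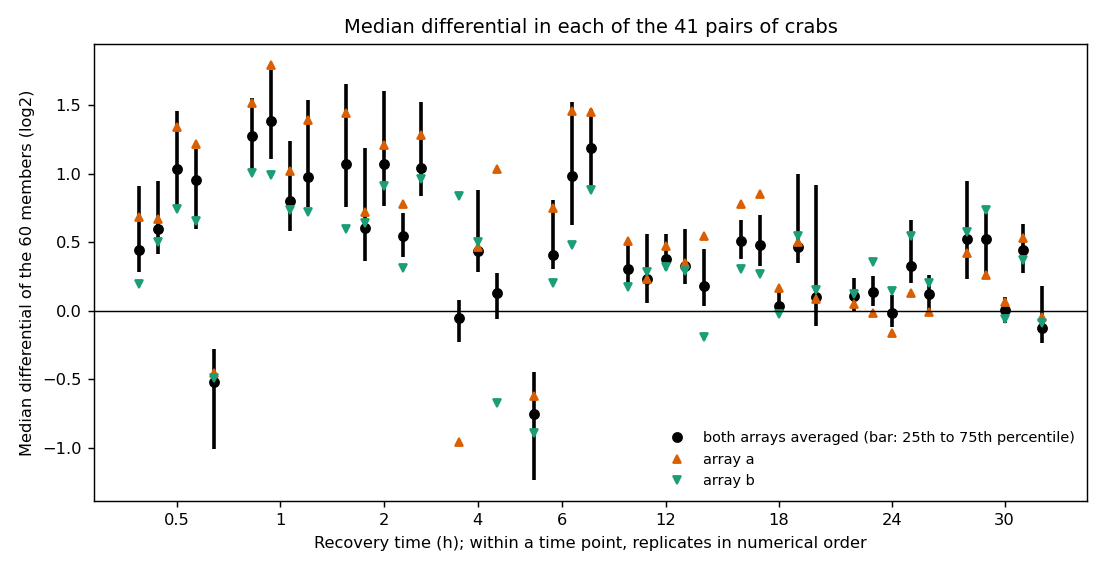
Median differential of the 60 members (log2) in each of the 41 pairs, grouped by recovery time in hours, from both arrays averaged (black, with the 25th to 75th percentile of the members as a bar) and from array a and array b alone (triangles). The medians from both arrays run from 0.54 to 1.38 at 1 and 2 h; replicate 5 of 0.5 h at -0.52 and replicate 1 of 6 h at -0.75 lie below all other pairs.

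At 4 h the mean differential was above 0 for 56 of 60 members (47.2% of all probes), with a median of 0.20. In replicate 2, where both arrays ran the same way, the median was 0.43 and 57 members were above 0, but this is a pair whose descriptions oppose its titles. In replicate 1 array a gave a median of -0.96 and array b 0.84, and in replicate 3 array a gave 1.04 and array b -0.67. The pair means of -0.052 and 0.13 are what is left when such opposed arrays are averaged. Over all 3 pairs 15 members were above 0 in each (10.1% of all probes). The levels of the groups did not overlap for 1 member (0.818%), Pc28Ge22. The lower values at 4 h therefore have no settled direction or size.

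At 6 h the mean differential was above 0 for 60 of 60 members (52.6% of all probes), with a median of 0.45 and a range from 0.17 to 2.17. The members' median was -0.75 in replicate 1, where 59 of 60 were below 0 against 48.5% of all probes, and 0.41, 0.98 and 1.19 in replicates 2, 3 and 4. Only 1 member was above 0 in all 4 pairs (4.4% of all probes), and 59 were above 0 in the last 3 (8.1%). Pc28Ge22 read -3.03, 3.72, 4.17 and 3.81, and Pc02Hd18 read -2.85, 2.85, 2.62 and 1.87. For both probes, 1 pair lay far below 0 and the other 3 far above it. Without replicate 1 the median of the members was 0.83, and the differential was in the median 87.9% of E, but replicates 3 and 4 are again pairs with opposed descriptions. With all pairs in, no probe had its lowest heat stressed crab of 6 h above the highest control (0%).

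Taking 0.5 and 6 h together, 55 members were above 0 in all 7 pairs other than the reversed ones (1.56% of all probes). In both reversed pairs 56 were below 0 (23.6%). The reversed pairs are so named for the members' own direction in them. Counts in them, or in the pairs left once they are set aside, are therefore no independent support, here and at each time above. Of the 7 pairs, replicates 3 and 4 of 6 h have opposed descriptions. Over all 12 pairs of 0.5, 4 and 6 h, 17 members were above 0 in at least 10 (2.71%).

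**Figure D4:**
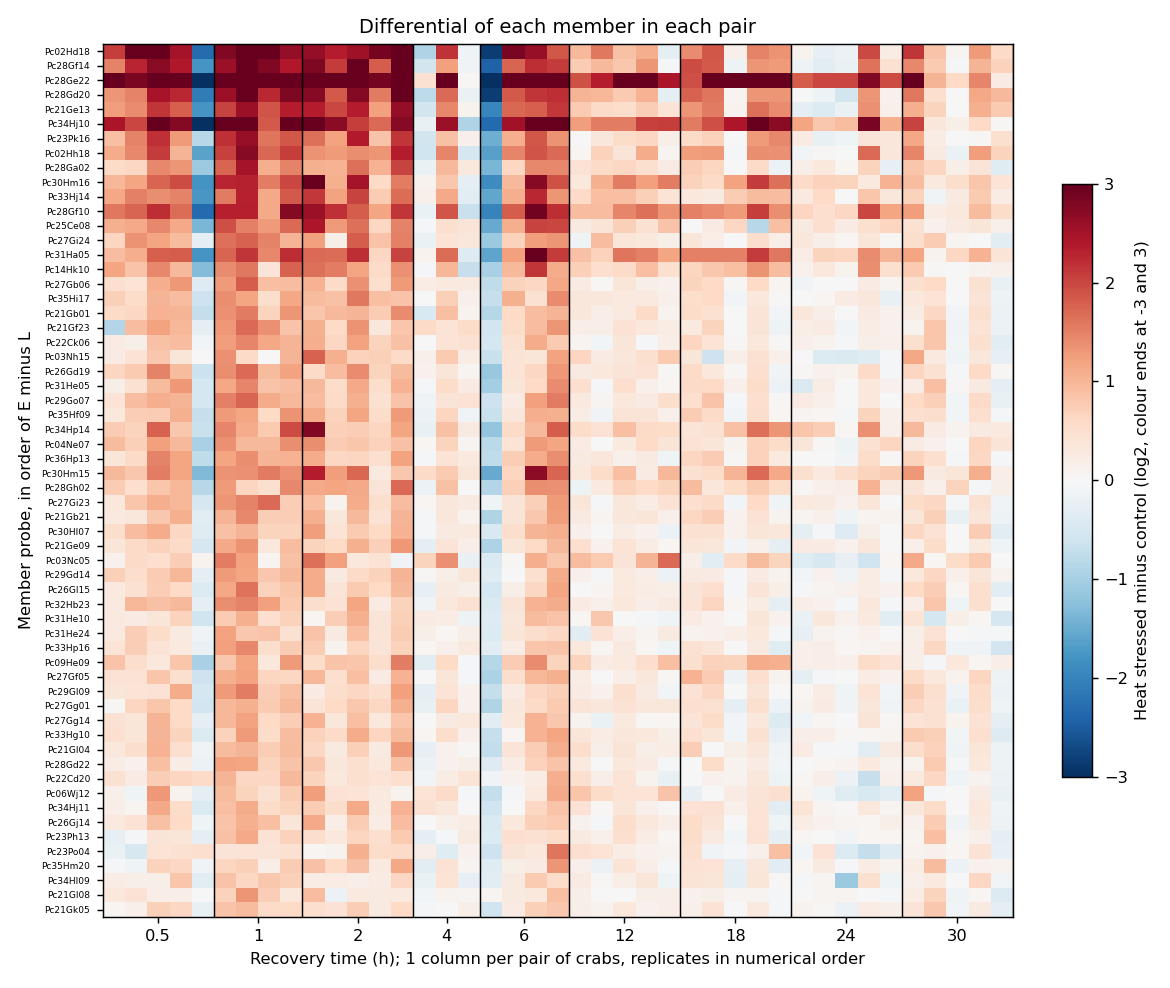
Differential (log2, colour) of each member in each pair, with members in order of E minus L and pairs by recovery time in hours. The columns of 0.5 h replicate 5 and 6 h replicate 1 are negative in 57 and 59 of 60 members, and the columns of 24 and 30 h are paler than those of 1 and 2 h.

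In the fit over all 82 crabs, no member and no probe had an adjusted p under 0.05 at 0.5, 4 or 6 h in limma with Benjamini-Hochberg adjustment (0% of 13818 probes at each time), and none did with the replicate number as a block, a fit that takes account of the arrays which the crabs of a pair shared. At an unadjusted p under 0.05, 9 members were higher at 0.5 h (0.138% of all probes), 0 at 4 h (0.00724%) and 5 at 6 h (0.166%), and with the block 38 (2.11%), 0 (1.35%) and 30 (2%). For the mean of the differentials at 0.5, 4 and 6 h, 0 members passed after adjustment in either fit, and 11 (0.217%) and 54 (2.24%) had an unadjusted p under 0.05. The mean of 0.5 and 6 h alone, added after the values were seen, also gave 0 calls in either fit, with 18 (0.297%) and 56 (2.66%) at an unadjusted p under 0.05. Pc02Hd18, as an example, had a log2 difference of 1.85 with a standard error of 0.57 at 0.5 h (limma, unadjusted p = 0.0017, adjusted p = 1.00). The spread that the reversed pair added to this group enters that error.

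Without 0.5 h replicate 5 and 6 h replicate 1, members were called at both times. This setting was added after the values were seen, and since these pairs were left out for their direction, its calls are no independent support. At 0.5 h limma then called 4 members higher (0.0796% of all probes), and 37 with the replicate block (0.449%). The 4 were Pc34Hj10 (log2 difference 2.74, standard error 0.38, adjusted p = 9.8e-06), Pc28Ge22 (3.66, standard error 0.63, adjusted p = 0.00046), Pc02Hd18 (2.88, standard error 0.50, adjusted p = 0.0005) and Pc28Gf10 (1.80, standard error 0.37, adjusted p = 0.014). Each was above 0 in all 4 remaining pairs. At 6 h limma called 5 members (0.152%), these 4 and Pc14Hk10 (1.41, standard error 0.30, adjusted p = 0.012), and 41 with the block (0.601%). Their adjusted p at 6 h lay between 1.9e-05 for Pc34Hj10 and 0.045 for Pc02Hd18, and 2 of the 3 pairs behind these calls are those with opposed descriptions. Pc28Gf10 and Pc14Hk10 were named after their values were seen.

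The mean of 0.5, 4 and 6 h gave 9 members called without these pairs (0.195%) and 52 with the block (0.688%). Of the 95 probes called higher by the latter fit, members made up 52. Since the pairs were left out for the members' direction in them, this share is no independent support. The mean also includes 4 h, whose direction is not settled. The mean of 0.5 and 6 h gave 10 members (0.224%), and 53 with the block (0.789%). With only 0.5 h replicate 5 left out, limma called 3 members at 0.5 h (0.0434%) and 14 with the block (0.188%), and with only 6 h replicate 1 left out, 3 at 6 h (0.109%) and 24 with the block (0.42%). The change of the differential from 0.5 to 6 h was called for 0 members in each of these fits. With all pairs in, 0 members had a larger differential at 0.5 h than at 6 h at an unadjusted p under 0.05, with and without the block. Of all probes, 0% did without it and 1.42% with it. Counts for a larger differential at 6 h are not given here.

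Members with a large E were also those with a large differential at the other times. Across the 60 members, which share crabs and arrays and are not independent, the correlation of E with the differential was r = 0.96 at 0.5 h, 0.63 at 4 h and 0.90 at 6 h. Without the reversed pairs it was 0.98 at 0.5 h and 0.95 at 6 h. The smallest means over the 12 pairs of 0.5, 4 and 6 h were those of Pc23Ph13, Pc34Hl09 and Pc23Po04. For Pc23Ph13 the 5 pairs of 0.5 h gave -0.25, -0.034, 0.39, 0.36 and -0.29, so its differential there did not hold 1 sign.

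The choice was also repeated with pairs left out. When each pair of 1 and 2 h was left out in turn and the 60 probes were chosen again from the rest, the median differential of the chosen probes in the pair left out lay between 0.54 and 1.38, and 57 to 60 of 60 were above 0, where 45.0% to 56.0% of all probes were. Leaving out any 1 of the 29 pairs of the 6 times chose 56 to 60 of the members again, and 54 members were chosen in all 29 settings. The pairs of a time point share their handling and time of sampling, so these values cover the spread between pairs only. As pairs of the same times made the choice, the values describe how far it depended on single pairs and carry no test.

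The fade of a differential can come from the heat stressed crabs, from the controls, or from both, and the levels of the crabs were compared to describe this. The levels come from the same crabs of 1, 2, 24 and 30 h that ranked E minus L, and the choice favours probes with low early or high late controls as well as probes with high early or low late heat stressed crabs, so the counts here are descriptions that the choice partly produced. The late minus early level was taken as the mean of 24 and 30 h minus that of 1 and 2 h, relative to the median shift of all probes, which was -0.51 in heat stressed crabs and -0.51 in controls as deposited, and -0.10 and -0.11 once each channel was centred on its median. Relative to that shift, the heat stressed crabs were lower late in 35 of 60 members, with a median of -0.064, and the controls were higher late in 52 of 60, with a median of 0.65. These values are the same with and without centring. Without that subtraction, the members' median shift as deposited was -0.57 in heat stressed crabs (51 of 60 lower late, against 81.2% of all probes). In controls it was 0.14 (37 of 60 higher late, against 19.6%). Centred, the shifts were -0.17 (39 lower, against 58.8%) and 0.54 (49 higher, against 40.7%). The counts of members lower late in heat stressed crabs were thus near the share of all probes.

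By size of E, the levels shifted as follows. In the 7 with an E of 2 or more, the heat stressed crabs fell relative to all probes in 7, with a median of -1.51, and the controls lay higher in 5, with a median of 0.70. For the 21 of middle size the median was -0.60 in heat stressed crabs (17 below 0) and 0.29 in controls (16 above 0). For the 32 with an E under 1, the heat stressed crabs had a median of 0.14, with 21 of them above 0, and the controls one of 0.68, with 31 above 0. In most small members the differential thus narrowed while, relative to all probes, the control level was higher at 24 and 30 h than at 1 and 2 h and the heat stressed level was not lower.

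Single members show the range. Pc34Hj10 fell by 2.08 in heat stressed crabs relative to all probes, and its controls shifted by -0.37. Pc30Hm16 shifted by -1.64 in heat stressed crabs and -0.39 in controls. Pc28Ga02, in contrast, shifted by 0.13 in heat stressed crabs and by 1.38 in controls, and Pc36Hp13, named after its values were seen, by 1.02 and 1.78. The arrays of early and late times are different arrays, and time of sampling and array cannot be told apart in these levels.

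**Figure D5:**
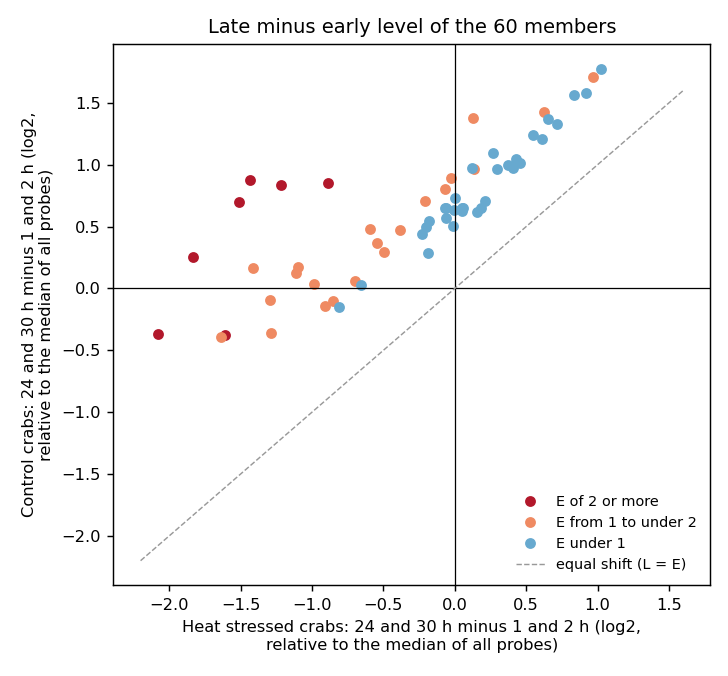
Late minus early level (log2, mean of 24 and 30 h minus mean of 1 and 2 h, relative to the median of all probes) in heat stressed crabs against control crabs for each of the 60 members, with size classes of E marked. The 7 members with an E of 2 or more lie at -0.89 or lower in heat stressed crabs, whereas 21 of the 32 with an E under 1 lie above 0 there and 31 of them lie above 0 in controls.

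The differentials of the members were correlated with each other over pairs that the choice did not use. Over the 12 pairs of 0.5, 4 and 6 h, the correlation of the differentials between members had a median of r = 0.86 over 1770 pairs of members (5th to 95th percentile 0.51 to 0.96), and without the reversed pairs, over 10 pairs of crabs, a median of 0.71. In the 41 control crabs alone, with channels centred and the means of the time points removed, the median was 0.31 (5th to 95th percentile -0.17 to 0.73). These correlations share crabs and arrays and are descriptions only. No correlation among other probes stands beside them, so whether they are particular to the members was not tested. The closest pair of members in control crabs was Pc34Hj10 with Pc28Gf10 (r = 0.93, n = 41 crabs), then Pc21Gb01 with Pc35Hf09 (0.92) and Pc27Gi23 with Pc32Hb23 (0.91). Pc34Hj10 with Pc14Hk10 (0.90) and Pc02Hd18 with Pc02Hh18 (0.88) were also among the closest 10. The pairs of probes were picked for their r, and whether they report the same transcript was not tested.

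The differential differed in size between the arrays. On array a the median E of the members was 1.14 and on array b 0.72, and 49 of 60 members had the larger E on array a. For L the order was the other way, with 0.12 on array a and 0.29 on array b, and 40 members had the larger L on array b. E from the separate arrays correlated across members at r = 0.91. Choosing the 60 probes from array b alone picked 32 of the members again, and array a alone picked more of them. From each array separately 24 members were chosen, and 2 were chosen from neither. Pc28Ge22, the member with the highest E, was chosen from array a but not from array b. At the times behind E and L the heat stressed crab was in Cy5 on array a and in Cy3 on array b in every pair, so array and dye cannot be told apart. Averaging both arrays balances the dyes within each pair where the titles hold.

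The members varied in brightness but leaned to the brighter probes, with none below percentile 31.7 of all probes. Their mean level over all crabs had a median of 8.70 and ranged from 7.25 to 11.23, which put the median member at percentile 70.2 of all probes, with a range from 31.7 to 89.8. The highest value of a member in any channel was 14.77, below the lowest maximum of a channel, 15.1. E and mean level correlated across members at r = 0.30. As probe brightness also depends on the probe, levels of different members are not compared as amounts of RNA.

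The plate positions of the members were uneven. Identifiers carrying the letter G made up 27 of 60 members (45%) against 16.7% of all probes. Those with H made up 23 (38.3% against 36.1%) and those with W 1 (1.67% against 16.7%). The letters C, N and P held 3 members each (5%), against 8.34%, 5.56% and 16.6% of all probes. The meaning of the letter is not given in the sources used here. Members lay on 21 of 36 plates, with the largest numbers on plates 21 (8 members), 28 (7) and 27 (6). There were 4 pairs of members in adjacent wells, Pc30Hm15 with Pc30Hm16 (r = 0.92 over 41 pairs of crabs), Pc27Gi23 with Pc27Gi24 (0.85), Pc34Hj10 with Pc34Hj11 (0.67) and Pc28Gd22 with Pc28Ge22 (0.58). Of 220 other probes in wells next to a member, 4 (1.82%) had an E of 0.4 or more, and the median E of the 220 was 0.0098. Among all probes 140 (1.01%) had such an E. These 140 include the 60 members, which the 220 leave out, so the shares have unlike bases.

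The limit at 60 cut through a continuous range. The members just inside it were Pc21Gl08 and Pc21Gk05, each with an E minus L of 0.46, and the probes just outside were Pc24Cj17 with 0.46 and Pc26Gl14 with 0.45. In Pc21Gl08 the differential of the 9 early pairs ran from -0.17 to 1.32, with an E of 0.52 ± 0.44 (SD, n = 9 pairs), so at this end the early rise was close to the spread between pairs. Pc26Gl14 had a higher E, 0.65, than Pc21Gl08 and was left out through its L of 0.20.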

How the data were processed

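For every probe and channel of the cDNA arrays, the authors deposited 1 processed value, read here as a log2 intensity because channel maxima lay from 15.1 to 16.6. How background and arrays were corrected is not given in the sources used here. Precision is limited by the number of arrays.

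The channels of a crab were averaged over arrays a and b, and treatment and time were taken from titles. Members and lists were chosen with earlier results of these data known. Probes were named as the 10 members with the largest E minus L, the 3 highest and the 3 lowest over the 12 pairs of 0.5, 4 and 6 h, any called there, 2 on each side of the limit and the extremes of M; exceptions are stated. Tests were run in R 4.3.3 with lmFit and eBayes of limma 3.58.1, over 18 groups of all 82 crabs and with Benjamini-Hochberg adjustment over 13818 probes. The step was tested on simulated data. These had independent noise in each probe and no reversed pair. They therefore do not cover the correlation between members or the reversed pairs of the real data. The replicate numbers pair the crabs, as titles put equally numbered crabs on the same arrays, and deviations from group means had an r of at least 0.44 within all 41 pairs (highest 0.94, median 0.75). The fit with the replicate block is therefore printed where it moves a count. Labels do not say whether crabs of a group were kept apart, so p-values measure the spread between these crabs. Alternatives covered the channel centring, each array alone, the median over pairs, a filter on dim probes, the block and eBayes settings. Also covered were the treatment in the description and each pair left out. The description was used only for crabs with the conflict in both samples. M, L and the choice were not recomputed with it. The closing section gives the effect of the alternatives. Other steps used pandas 2.3.3, numpy 2.4.6 and matplotlib 3.10.9 under Python 3.11.15.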

Additional observations from a re-analysis of the deposited data

Results flagged for a closer look

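The gap between the highest or lowest pair and its nearest neighbour was set against the range of a time point's 4 or 5 pairs. Examined were the named members at 0.5 and 6 h and the median of all 60 members at each time but 4 h. In 14 of these 40 groups a pair was set apart, where chance alone gives about 1 in 20. All 14 were groups of named members. The members share crabs and arrays, so the 14 are not separate events. All of them lie in 1 of 2 pairs, and most of the named members were picked for a large E minus L. In the median of all 60 members, which is counted among the 40 groups, neither pair was set apart. The gap took 0.62 of the range at 0.5 h, where 0.71 is needed, and 0.60 at 6 h, where 0.829 is needed.

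At 0.5 h, replicate 5 lay apart for 6 members beside Pc02Hd18, which read -2.30 there. The values were -4.01 for Pc28Ge22, -3.22 for Pc34Hj10, -2.09 for Pc28Gd20, -1.79 for Pc30Hm16, -1.77 for Pc28Gf14 and -1.76 for Pc21Ge13. In the 4 other pairs each of these members was above 0.

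At 6 h, replicate 1 lay apart for 7 members. Pc28Ge22 read -3.03 there, Pc28Gd20 -2.84, Pc28Gf14 -2.42, Pc34Hj10 -2.33, Pc21Ge13 -1.95 and Pc02Hh18 -1.64. Pc23Ph13, a member with a small differential, read -0.42 against 0.50, 0.45 and 0.55 in the other pairs.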

How the results depend on the processing

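Which pairs were left out decided the calls. Leaving out 1 pair, or 0.5 h replicate 5 and 6 h replicate 1 together, with or without the replicate block, gave 0 to 86 probes called at 0.5 h, 0 to 11 at 4 h, 0 to 102 at 6 h, 0 to 119 for the mean of the 3 times and 0 to 182 for the mean of 0.5 and 6 h. Members called ranged from 0 to 37, 0 to 0, 0 to 41, 0 to 52 and 0 to 53 in the same order. The change from 0.5 to 6 h gave 0 calls in each. The members' median ranged from 0.36 to 0.74 at 0.5 h, 0.056 to 0.33 at 4 h and 0.25 to 0.83 at 6 h, and 56 to 60 members were chosen again.

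Without 0.5 h replicate 5 and 6 h replicate 1 and with no block, limma called 11 probes and 4 members at 0.5 h, 21 and 5 at 6 h, 27 and 9 in the mean of the 3 times, and 32 and 10 in the mean of 0.5 and 6 h. With the block and only 0.5 h replicate 5 left out, it called 35 probes and 14 members at 0.5 h, 32 and 14 in the mean of the 3 times, and 97 and 34 in the mean of 0.5 and 6 h. With the block and only 6 h replicate 1 left out, these were 71 and 24 at 6 h, 70 and 36 in the mean of the 3 times, and 105 and 48 in the mean of 0.5 and 6 h. The replicate block on all pairs gave 0 calls at 0.5, 4 and 6 h, as did the fit without it.

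With the treatment from the description, the members' median was -0.12 at 4 h and -0.56 at 6 h. From array b alone 32 members were chosen again. No other alternative run moved a median past its spread between pairs or a count by over 1.5 times. Spot background was not analysed here, so the limit that dim signal sets is unknown. With 3 pairs, 2 of them with opposed arrays, 4 h had the least data.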
